A study of Mus musculus with 15 samples.

Results

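The genes described here are 10 genes listed together as antiproliferative or quiescence genes, Txnip, Pik3ip1, Tsc22d3, Btg1, Btg2, Tob1, Tob2, Ypel3, Slfn2 and Tsc22d4. They were picked out by symbol from 17493 genes counted in 15 bulk RNA libraries. All 10 had a row in every library and all 10 were among the 10831 genes with enough counts to be tested. The libraries came from CD8+ OT-I T lymphocytes of spleen and lymph nodes of female mice of the strain C57BL/6-Tg(TcraTcrb)1100Mjb/Crl, whose transgenic receptor recognises an ovalbumin peptide on MHC class I. Every group carried this receptor transgene, and the age of the mice is not given in the sources used here. The unstimulated group was taken at 0 h with no treatment. The stimulated cells, at 50000 T cells per well, received either immunofilaments, written IF below, or dendritic cells, written DC below. Immunofilaments are synthetic polymer filaments, used here at 5 ng/ml and decorated with SIITFEKL-loaded MHC and IL-2. The DC were 20000 Flt-3 ligand cells per well pulsed with the same peptide, and the labels name no added IL-2 for them. Stimulation lasted 8 h or 22 h, which gave 5 groups of 3 libraries: unstimulated, IF 8 h, DC 8 h, IF 22 h and DC 22 h. Viable CD8+ CD103- cells were sorted before lysis. The titles tag the libraries of each group Don1, Don2 and Don3, which are called replicates 1, 2 and 3 here. The tag may stand for donor, but the labels do not spell it out, and unless it marks separate animals the p-values measure only the spread between these samples, which may be technical. No unstimulated cells were kept in culture for 8 h or 22 h, so the stimulus and the time in culture cannot be told apart in any comparison with the unstimulated group.

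Naive T cells are held in quiescence, a small, resting state out of the cell cycle, by proteins that limit growth signals, nutrient uptake and mRNA levels until antigen arrives. TXNIP binds thioredoxin and restrains glucose uptake, and PIK3IP1 restrains PI3K, the lipid kinase downstream of the T cell receptor. BTG1, BTG2, TOB1 and TOB2 form the BTG/TOB family, whose members bind the CCR4-NOT deadenylase and promote shortening of mRNA poly(A) tails. TSC22D3, also called GILZ, is a leucine zipper protein induced by glucocorticoids, and TSC22D4 belongs to the same family. SLFN2 is a Schlafen family protein needed to keep T cells quiescent, and YPEL3 is a small protein linked to growth arrest.

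The promoters of 3 of these genes are printed first because their letters hold motifs tied to regulators of quiescence. RefSeq start sites on GRCm38.p6 were found for 9 of the 10 genes, 11 start sites in all, and Tsc22d4 had no entry. Each window was read 5′ to 3′ on the strand of the gene and ends before the RefSeq start, and that of Tsc22d3 was trimmed to the bases upstream of the annotated gene. Txnip is shown from chr3:96557707-96557956 on the + strand, Btg1 from chr10:96616751-96617000 on the + strand, and Tsc22d3 from chrX:140600660-140600772 on the - strand, upstream of its most distal start site. Capitals mark matches to the motifs searched, on either strand.
Txnip: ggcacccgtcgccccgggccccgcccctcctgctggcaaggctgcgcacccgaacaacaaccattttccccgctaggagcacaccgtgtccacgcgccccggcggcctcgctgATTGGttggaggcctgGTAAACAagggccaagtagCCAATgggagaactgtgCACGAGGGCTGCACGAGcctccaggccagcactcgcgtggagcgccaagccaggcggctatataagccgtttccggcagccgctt
Btg1: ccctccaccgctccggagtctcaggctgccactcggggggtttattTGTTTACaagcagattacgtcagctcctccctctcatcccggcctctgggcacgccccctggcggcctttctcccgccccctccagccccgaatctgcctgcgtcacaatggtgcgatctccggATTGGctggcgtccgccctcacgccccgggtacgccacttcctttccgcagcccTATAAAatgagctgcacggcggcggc
Tsc22d3: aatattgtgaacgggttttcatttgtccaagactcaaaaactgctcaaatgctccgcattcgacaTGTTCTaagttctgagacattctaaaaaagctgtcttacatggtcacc
The Txnip window held GTAAACA, the letters bound by forkhead factors such as FOXO1, with its first base at -121 from the start site, between CCAAT boxes (CCAAT or ATTGG) at -137 and -102. At -85 it held a pair of CACGAG separated by 5 bases, the layout of a carbohydrate response element, through which MondoA and MLX act on Txnip. This pair was searched after the sequence had been read, and it occurred in 1 of the 32851 promoters of the table, that of Txnip. Btg1 held the forkhead motif as TGTTTAC at -204, a CCAAT box at -80 and the TATA letters TATAAA at -26. The forkhead motif was found in 3 of the 9 genes (Txnip, Btg1 and Ypel3, where it lay at 26 bases after the start) and in 3.65% of all promoters of the same 300 bases. Tsc22d3 held TGTTCT, the core letters of a glucocorticoid receptor site, at -185 from its most distal start site only. This motif was found in 1 of the 9 genes and in 19% of all promoters. CCAAT or ATTGG was found in 6 of the 9 genes and in 37.4% of all promoters. Neither CACGTG nor TGACTCA or its reverse complement occurred in any of the 9 genes. These matches describe the letters only, since no binding was measured.

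Total counts ran from 2892874 to 19806730 per library, and levels are given as CPM, the count of a gene scaled to a common library total with TMM factors. All 10 CD8 T cell markers were present, with Cd8a at 419 to 999 CPM, and Cd4 had no count in 14 of 15 libraries. These 10 markers summed to 10949 to 11795 CPM in unstimulated libraries and to 4992 to 8116 in stimulated ones, and their part in the results below was not tested. The 17 dendritic cell markers summed to 532 to 1277 CPM in unstimulated cells, 149 to 389 in IF 8 h, 769 to 1126 in DC 8 h, 325 to 545 in IF 22 h and 392 to 587 in DC 22 h. Fscn1, a dendritic cell marker, was at 126 to 168 CPM in DC 8 h and 72.9 to 94.8 in DC 22 h, against 0 to 6.75 in unstimulated cells, and Zbtb46 was at 0 in unstimulated and IF 8 h libraries. Itgae, which encodes the CD103 used in the sort, was at 9.84 to 59.8 CPM. Replicates 2 and 3 of IF 22 h held 0.179% and 0.146% of their counts in mitochondrial rRNA, against 1.82% to 4.49% in the other libraries. In these 2 libraries 114 genes lay more than 2-fold below all others, and 0 of them were among the 10. Replicate 2 of DC 8 h and replicate 2 of DC 22 h stood apart from the other DC libraries in most of the 10 genes, and the counts and medians of the 10 genes, and the list counts that moved by over 1.5 times, are also given without them. In bulk RNA, fewer cells that hold a transcript and less of it per cell cannot be told apart.

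Tsc22d3 fell under both stimuli at both times, Tob2 fell in DC 8 h and IF 22 h, and Btg1 fell in IF 22 h. The remaining genes moved by less than the test could separate from the spread between libraries. With edgeR's quasi-likelihood test, 1 of the 10 genes passed an adjusted p of 0.05 in IF 8 h against unstimulated cells, where 7.76% of all tested genes passed. In DC 8 h 2 of 10 passed against a background of 6.82%, in IF 22 h 3 of 10 against 6.08%, and in DC 22 h 1 of 10 against 7.76%. All of these calls were in the lower direction, for which the backgrounds were 4.72%, 4.07%, 3.44% and 4.35%. The median log2 fold change of the 10 genes was -0.35 in IF 8 h, -0.41 in DC 8 h, -0.20 in IF 22 h and -0.47 in DC 22 h. Over all tested genes it was 0.02, 0.04, 0.01 and 0.04. Without replicate 2 of both DC groups the medians of the 10 genes were -0.35, -0.22, -0.18 and -0.17, and 2, 2, 4 and 2 of the genes passed, among them Ypel3 in IF 22 h and Pik3ip1 in DC 22 h as higher. In that fit 12.7%, 6.35%, 10.2% and 6.29% of all tested genes passed, so the background itself rose in both IF comparisons, for the 10 genes and for the lists below. The 4 comparisons share the same 3 unstimulated libraries. The CPM ranges of both groups did not overlap for 5, 5, 5 and 2 of the 10 genes, beside 30.6%, 28.2%, 30.4% and 27.1% of all tested genes. Scaling by library size alone moved the median of all tested genes to 0.26, 0.30, 0.22 and 0.37 in the same order, so the changes below are relative to the TMM reference.

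**Figure D1:**
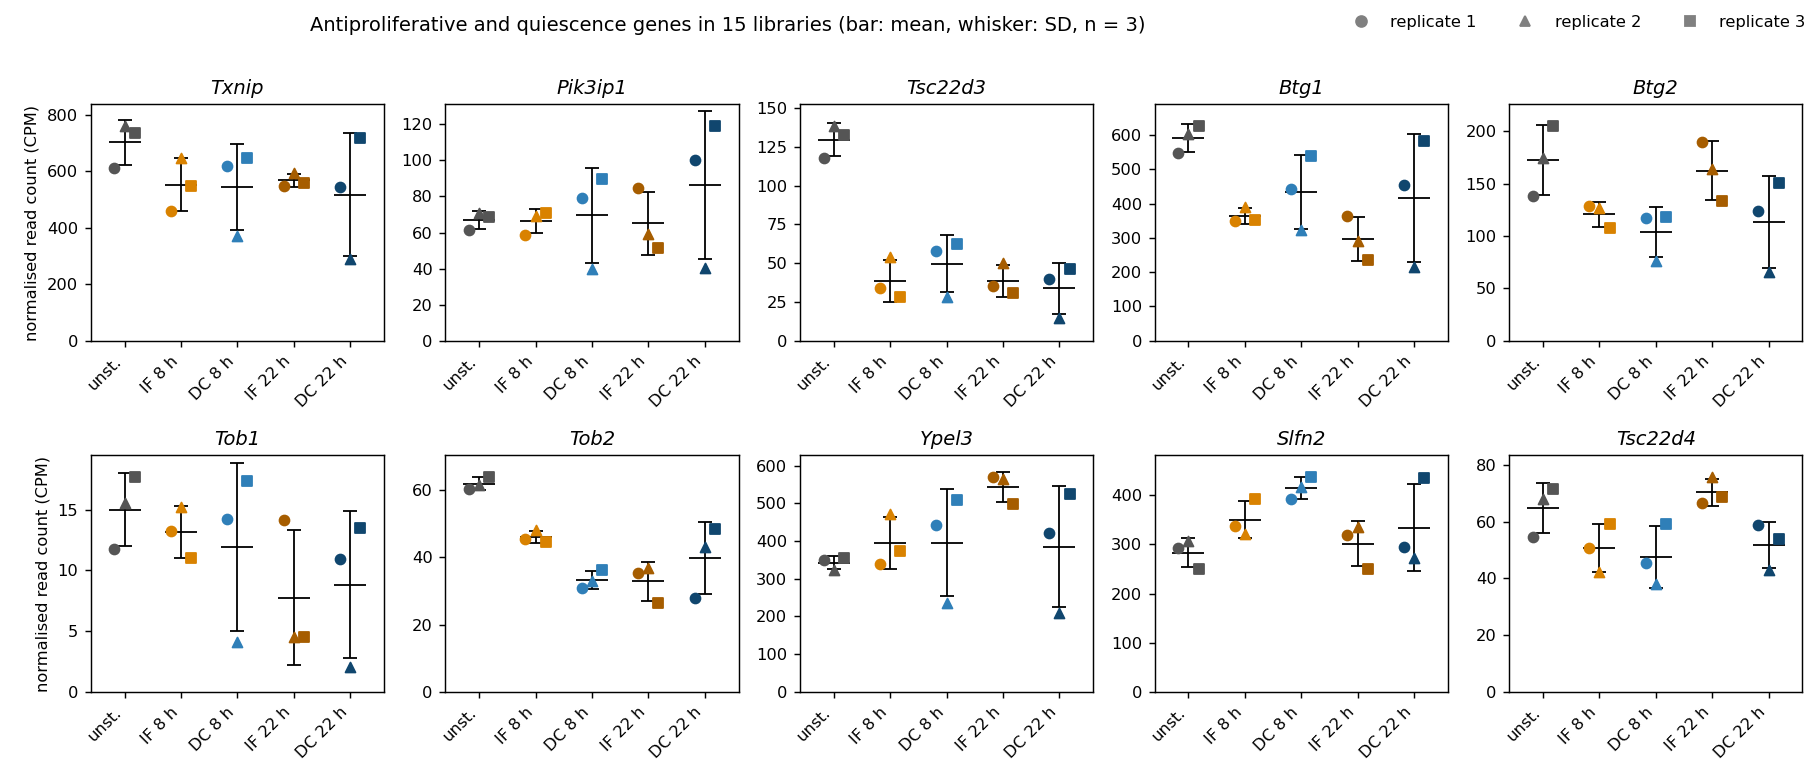
Levels of the 10 genes in CPM (y axis, from 0) in the 5 groups (x axis). Each symbol is 1 library, shaped by replicate number, with the mean as a bar and the SD as whiskers (n = 3). Tsc22d3 drops from 118 to 138 CPM in unstimulated libraries to at most 62.3 in any stimulated library.

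**Figure D2:**
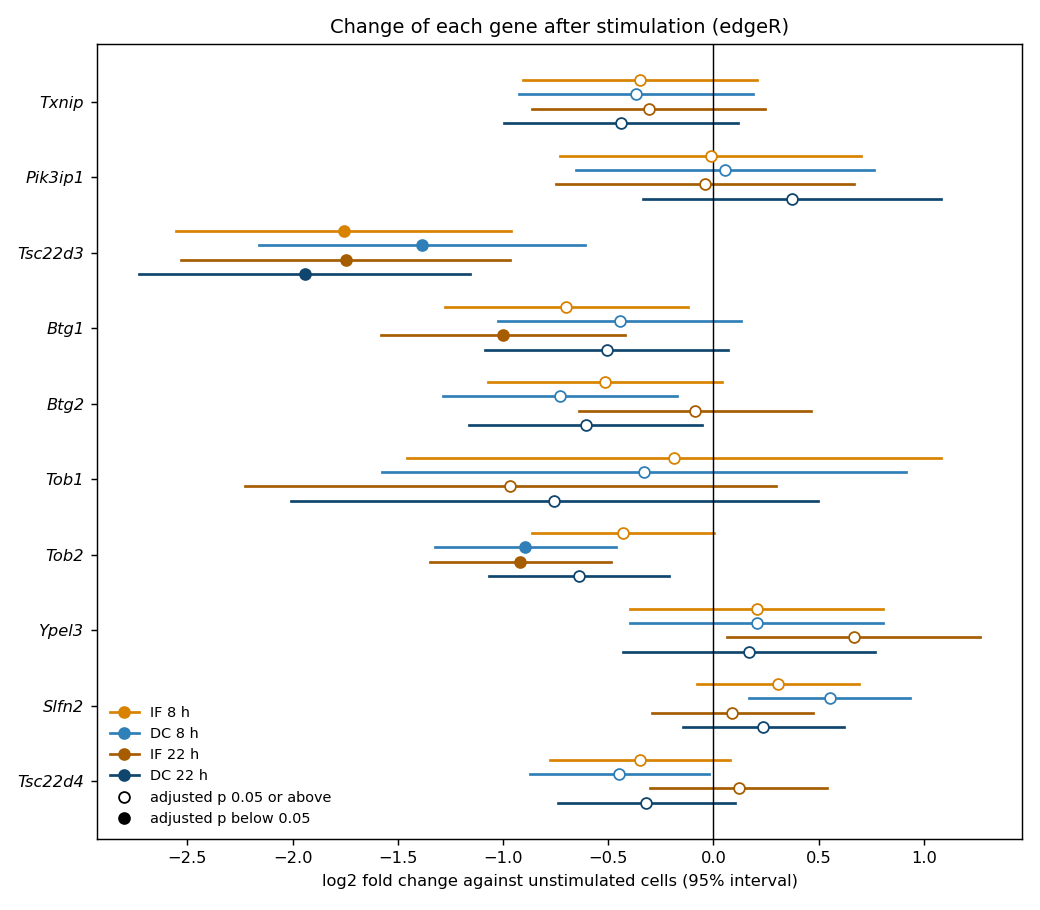
Log2 fold change of each gene against unstimulated cells (x axis) with its 95% interval, in 1 colour per stimulated group. Filled points passed an adjusted p of 0.05, which were the 4 of Tsc22d3, those of Tob2 in DC 8 h and IF 22 h, and that of Btg1 in IF 22 h.

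Tsc22d3 lies on chromosome X at 140539528 to 140600659 of GRCm38, on the - strand. Its levels were 118, 138 and 133 CPM in the unstimulated libraries, 34.1, 53.7 and 27.9 in IF 8 h, and 58.0, 28.4 and 62.3 in DC 8 h. At 22 h they were 35.4, 50.1 and 30.5 CPM with IF and 39.9, 14.7 and 46.2 with DC. All 12 stimulated libraries lay below all 3 unstimulated ones, and the 4 stimulated groups overlapped each other. The log2 fold change was -1.76 ± 0.38 (SE) in IF 8 h (edgeR adjusted p = 0.0097) and -1.39 ± 0.37 in DC 8 h (adjusted p = 0.029). At 22 h it was -1.75 ± 0.37 with IF (adjusted p = 0.0092) and -1.94 ± 0.37 with DC (adjusted p = 0.0040). The direction held in every alternative tried, but the call did not. In IF 8 h it was lost when IF 8 h replicate 3 was left out (adjusted p = 0.055). In IF 22 h it was lost when IF 22 h replicate 3 was left out (0.058). With replicates 2 and 3 both left out, 1 library stood for IF 22 h and the spread came from the other groups. The log2 fold change was then -1.87 ± 0.57 (adjusted p = 0.17), and 0.833% of all tested genes passed. In DC 8 h the adjusted p rose to 0.12 or 0.061 when DC 8 h replicate 2 or 1 was dropped, to 0.059, 0.091 and 0.079 when each unstimulated library was dropped in turn, and to 0.059 with library size scaling alone. With replicate 2 of both DC groups left out, the DC 8 h call held (-1.11 ± 0.25, adjusted p = 0.013). With DC 22 h the call held in all 25 alternatives.

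Tsc22d4, on chromosome 5 at 137745730 to 137768450 on the + strand, did not follow its family member. It was at 54.6, 68.1 and 71.5 CPM in unstimulated cells, 50.8, 42.1 and 59.2 in IF 8 h, and 45.3, 37.9 and 59.3 in DC 8 h. With IF for 22 h it was at 66.4, 75.8 and 68.8 CPM, and with DC for 22 h at 58.8, 42.9 and 53.8. The ranges of the unstimulated group overlapped those of all 4 stimulated groups. Its largest change from unstimulated cells was -0.45 ± 0.20 in DC 8 h (edgeR adjusted p = 0.21).

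Other genes under glucocorticoid receptor control, a hormone receptor with many targets in lymphocytes, were examined beside Tsc22d3. Of the 9 tested genes of this list, 3 fell in IF 8 h, 3 in DC 8 h, 2 in IF 22 h and 3 in DC 22 h, and 0 rose. Of all tested genes 4.72%, 4.07%, 3.44% and 4.35% fell in these comparisons. Dusp1, a phosphatase that switches off MAP kinases, fell in all 4 comparisons, with a log2 fold change of -3.71 ± 0.33 in IF 8 h and -4.84 ± 0.34 in DC 22 h (edgeR adjusted p = 4.4e-06 and 3.2e-07). Sgk1, a kinase, fell in 3 of them, by 1.68 ± 0.40 on the log2 scale in IF 8 h (adjusted p = 0.017). The list's median log2 fold change was -0.16, -0.48, -0.22 and -0.92 in the order IF 8 h, DC 8 h, IF 22 h and DC 22 h. Immediate early and heat shock genes, which cell handling can raise, moved in the same direction: 11, 10, 10 and 12 of 14 fell, among them Dusp1 itself. The shares of all tested genes beside these counts are those just given. The immediate early and heat shock genes summed to 3483 to 5045 CPM in unstimulated libraries and to 1178 to 2080 in the stimulated ones. Fos was at 292 CPM on average in unstimulated cells and 5.23 in IF 8 h. The part of these levels in the fall of Tsc22d3 was not tested.

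The BTG/TOB family was next. Tob2, on chromosome 15 at 81848272 to 81858796 on the - strand, was at 60.5, 61.6 and 64.0 CPM in unstimulated cells. It was at 45.5, 48.1 and 44.7 CPM in IF 8 h and at 31.0, 32.9 and 36.3 in DC 8 h. At 22 h it was at 35.5, 36.9 and 26.3 CPM with IF and at 28.0, 43.0 and 48.5 with DC. Every stimulated library lay below every unstimulated one. The log2 fold change was -0.89 ± 0.20 in DC 8 h (edgeR adjusted p = 0.013) and -0.92 ± 0.20 in IF 22 h (adjusted p = 0.013). It was -0.43 ± 0.20 in IF 8 h (adjusted p = 0.22) and -0.64 ± 0.20 in DC 22 h (adjusted p = 0.065), which missed the threshold. The call in DC 8 h was lost without DC 8 h replicate 1 (adjusted p = 0.060), and that in IF 22 h without IF 22 h replicate 3 (0.087) or unstimulated replicate 3 (0.050). Library size scaling alone also ended the call in DC 8 h (0.061). With 1 library left in IF 22 h, as above, the log2 fold change there was -0.80 ± 0.30 (0.33). Tob2 shares 289 exonic bases with Gm49476 on the other strand, and reads of both cannot be told apart where strand was not used.

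Btg1, on chromosome 10 at 96617006 to 96622809 on the + strand, was at 548, 603 and 627 CPM in unstimulated cells. It was at 349.9, 392 and 354 CPM in IF 8 h and at 442, 324 and 539 in DC 8 h. With IF for 22 h it was at 363, 291 and 236 CPM, and with DC for 22 h at 454, 214 and 582. Both IF groups and the DC 8 h group lay wholly below the unstimulated range, while DC 22 h overlapped it through replicate 3. Only the IF 22 h change passed, at -0.998 ± 0.27 (edgeR adjusted p = 0.040). This call held in 13 of 25 alternatives and in 5 of 15 when any single library was dropped, where the adjusted p ran from 0.0038 to 0.17. Without IF 22 h replicates 2 and 3, which leaves 1 library there, the log2 fold change was -0.71. In IF 8 h the log2 fold change was -0.70 ± 0.27 (adjusted p = 0.13). It passed in 4 of 25 alternatives, among them without DC 22 h replicate 2 (edgeR adjusted p = 0.026). Without replicate 2 of both DC groups it was -0.70 ± 0.16 (0.0085), in a fit where 12.7% of all tested genes passed. Btg1 has processed pseudogenes, and its count is uncertain because reads may be shared with them, which was not tested.

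Btg2, on chromosome 1 at 134075170 to 134079120 on the - strand, was at 138, 175 and 205 CPM in unstimulated cells, 128, 127 and 107 in IF 8 h, and 117, 76.5 and 118 in DC 8 h. At 22 h it was at 189.9, 163 and 134 CPM with IF and at 124, 65.1 and 151 with DC. Both 8 h groups lay below the unstimulated range and both 22 h groups overlapped it. None of its changes passed the edgeR test, and the largest was -0.73 ± 0.26 in DC 8 h (adjusted p = 0.11). Without DC 22 h replicate 2, which leaves the estimate at -0.74, the adjusted p of that change was 0.029.

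Tob1, on chromosome 11 at 94211454 to 94215495 on the + strand, had the widest intervals of the 10, with 18 to 158 counts per library. It was at 11.7, 15.5 and 17.7 CPM in unstimulated cells, 13.2, 15.3 and 11.0 in IF 8 h, and 14.3, 4.10 and 17.3 in DC 8 h. With IF for 22 h it was at 14.2, 4.54 and 4.49 CPM, and with DC for 22 h at 10.9, 1.99 and 13.5. All 4 stimulated groups overlapped the unstimulated range, with replicate 2 of both DC groups and replicates 2 and 3 of IF 22 h far below the rest. The standard error of its log2 fold change was 0.59 to 0.60, so that even -0.97 in IF 22 h did not pass (edgeR adjusted p = 0.39). Without IF 22 h replicates 2 and 3, which leaves 1 library there, the log2 fold change was -0.08.

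Of 16 tested genes for CCR4-NOT subunits, PAN deadenylases and poly(A) binding proteins, 1 passed in IF 8 h, as lower, and 0 in the other 3 comparisons with edgeR. In IF 8 h 7.76% of all tested genes passed, so 1 of 16 is near the background. The gene that fell was Pabpc1, a poly(A) binding protein, with a log2 fold change of -0.45 ± 0.12 (adjusted p = 0.032). Without replicate 2 of both DC groups, 1 gene rose and 1 fell in IF 8 h, 1 rose in IF 22 h, and Pabpc1 also passed in DC 8 h, as lower (adjusted p = 0.025). In DC 8 h, IF 22 h and DC 22 h with all libraries the smallest adjusted p-values of the list were 0.060 for Pabpc1, 0.054 for Cnot2 and 0.13 for Rqcd1.

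Txnip and Pik3ip1, the brakes on glucose uptake and PI3K, passed in no comparison. Txnip, on chromosome 3 at 96557957 to 96561883 on the + strand, was at 609, 759.8 and 735 CPM in unstimulated cells. It was at 459, 646 and 548 CPM in IF 8 h and at 619, 369 and 645 in DC 8 h. At 22 h it was at 548, 593 and 559 CPM with IF and at 545, 288 and 718 with DC. The mean of every stimulated group was below that of unstimulated cells, by log2 fold changes of -0.31 to -0.44, and only the IF 22 h range lay wholly below. The smallest edgeR adjusted p was 0.34, in DC 22 h. Without replicate 2 of both DC groups the log2 fold changes were -0.16 in DC 8 h and -0.13 in DC 22 h. The exons of Txnip share 606 bases with Gm15441 on the other strand.

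Pik3ip1, on chromosome 11 at 3330401 to 3342971 on the + strand, was at 61.2, 70.8 and 68.4 CPM in unstimulated cells and at 58.7, 69.3 and 71.0 in IF 8 h. In DC 8 h it was at 79.1, 39.6 and 89.9 CPM, in IF 22 h at 84.6, 59.2 and 51.6, and in DC 22 h at 100.04, 40.3 and 119. In both DC groups replicates 1 and 3 were above all unstimulated libraries and replicate 2 was below all of them. The log2 fold change in DC 22 h was 0.37 ± 0.33 (edgeR adjusted p = 0.55), and without replicate 2 of both DC groups it was 0.74 ± 0.20 (adjusted p = 0.037). Its exons share 91 bases with Gm12592 on the other strand.

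Of 12 tested genes around TXNIP (thioredoxins, glucose transporters, hexokinases, MondoA/MLX and Ddit4), 1 fell in IF 8 h and in DC 22 h, 1 rose in IF 22 h, and 0 passed in DC 8 h. In IF 8 h, DC 8 h, IF 22 h and DC 22 h, 7.76%, 6.82%, 6.08% and 7.76% of all tested genes passed, so 1 of 12 is near the background. The gene that fell was Ddit4, an inhibitor of mTORC1 that also stands in, and is counted among the fallen genes of, the glucocorticoid list, at -1.08 ± 0.27 in IF 8 h and -0.92 ± 0.26 in DC 22 h (edgeR adjusted p = 0.024 and 0.041). Without replicate 2 of both DC groups, Ddit4 no longer passed in DC 22 h (-0.73 ± 0.27, adjusted p = 0.13). The gene that rose was Mlxip, which encodes MondoA, at 1.02 ± 0.27 (adjusted p = 0.035). Of 18 tested genes for PI3K and its direct regulators, 4 fell in IF 8 h, 3 in DC 8 h, 0 in IF 22 h and 2 in DC 22 h. Of all tested genes 4.72%, 4.07%, 3.44% and 4.35% fell. Without replicate 2 of both DC groups, the genes around TXNIP held 1 that rose and 1 that fell in IF 8 h and 3 that rose in IF 22 h, and the PI3K list held 1 that rose beside the 4 that fell in IF 8 h and 1 that fell in IF 22 h. Those that fell in the PI3K list with all libraries included the catalytic subunit Pik3cg, at -1.42 ± 0.31 in IF 8 h and -1.30 ± 0.30 in DC 8 h (adjusted p = 0.011 and 0.015). Inpp5d, the phosphatase SHIP-1, fell in DC 8 h from 59.7 to 24.3 CPM on average (adjusted p = 0.0011).

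Ypel3 and Slfn2 were higher in mean in every stimulated group than in unstimulated cells, though neither passed in any comparison. These directions turned in the DC groups when replicate 3 was left out, to -0.01 and -0.12 for Ypel3 at 8 h and 22 h and to -0.00 for Slfn2 at 22 h. Ypel3, on chromosome 7 at 126776955 to 126780514 on the + strand, was at 349.5, 323 and 356 CPM in unstimulated cells, 340.2, 473 and 373 in IF 8 h, and 442, 235 and 509 in DC 8 h. With IF for 22 h it was at 570.3, 564 and 497 CPM, and with DC for 22 h at 422, 209 and 524. The IF 22 h libraries lay above all unstimulated ones, and the other groups overlapped them. Its log2 fold change in IF 22 h was 0.67 ± 0.28 (edgeR adjusted p = 0.19). This change passed when only the groups compared were fitted (adjusted p = 0.0079), with no low-count filter (0.016) and when replicate 2 of both DC groups was left out (0.0051).

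Slfn2, on chromosome 11 at 83065112 to 83070678 on the + strand, was at 293, 307 and 250.4 CPM in unstimulated cells, 337, 322 and 393 in IF 8 h, and 392, 417 and 438 in DC 8 h. At 22 h it was at 319, 336 and 250.2 CPM with IF and at 294, 272 and 436 with DC. Both 8 h groups lay above the unstimulated range, and both 22 h groups overlapped it. The DC 8 h change was 0.55 ± 0.18 (edgeR adjusted p = 0.078). It passed with DESeq2 (adjusted p = 0.039) and in 4 other alternatives. In DC 8 h, Slfn2 and Tob2 were the 2 genes for which replicate 2 was not the lowest library.

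Among paralogs of the 10 genes, the calls were all of Schlafen genes. Of 14 tested paralogs, 2 fell and 1 rose in IF 8 h, 1 fell and 1 rose in DC 8 h, 2 fell in IF 22 h and 1 fell in DC 22 h. Of all tested genes 7.76%, 6.82%, 6.08% and 7.76% passed in these 4 comparisons. Slfn5 fell in all 4, with log2 fold changes of -2.25 ± 0.36, -1.36 ± 0.33, -2.86 ± 0.35 and -1.69 ± 0.33 (edgeR adjusted p = 0.00099, 0.020, 0.00013 and 0.0051). Slfn1, like Slfn2 a short Schlafen gene, rose from 395 to 596 CPM on average in IF 8 h and to 675 in DC 8 h (adjusted p = 0.044 and 0.011). Schlafen genes are similar in sequence and neighbours, so reads may be shared among them.

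No difference between IF and DC passed for any of the 10 genes. At 8 h, 0 passed with edgeR (0.665% of all tested genes did), 1 had an unadjusted p under 0.05 and 0 passed with DESeq2. At 22 h the same counts were 0, 1 and 0, with 2.43% of all tested genes past the threshold. Unadjusted, 8.27% of all tested genes lay under 0.05 at 8 h and 15.3% at 22 h, so 1 of 10 is near the background at both times. The gene at 8 h was Tob2, 46.1 ± 1.75 CPM (SD, n = 3) with IF and 33.4 ± 2.67 with DC, a difference of 0.47 on the log2 scale (95% interval 0.03 to 0.90). At 22 h it was Tsc22d4, 70.3 ± 4.87 CPM with IF and 51.9 ± 8.14 with DC, a difference of 0.44 (0.02 to 0.86). These were also the only genes without overlap at each time, beside 13.5% and 19.9% of all tested genes. For Tsc22d3 the interval of the IF minus DC difference ran from -1.15 to 0.41 at 8 h and from -0.57 to 0.96 at 22 h, so smaller differences were not detectable here. The narrowest intervals were those of Slfn2, -0.63 to 0.14 at 8 h and -0.53 to 0.23 at 22 h.

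Without replicate 2 of both DC groups, a choice made after seeing the data, Pik3ip1 and Btg1 were lower with IF than with DC at 22 h. The log2 differences were -0.76 ± 0.20 and -0.81 ± 0.17 (edgeR adjusted p = 0.049 and 0.018), with 3.11% of all tested genes past the threshold. With all libraries the same differences were -0.41 ± 0.33 and -0.49 ± 0.27 (adjusted p = 0.62 and 0.42).

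**Figure D3:**
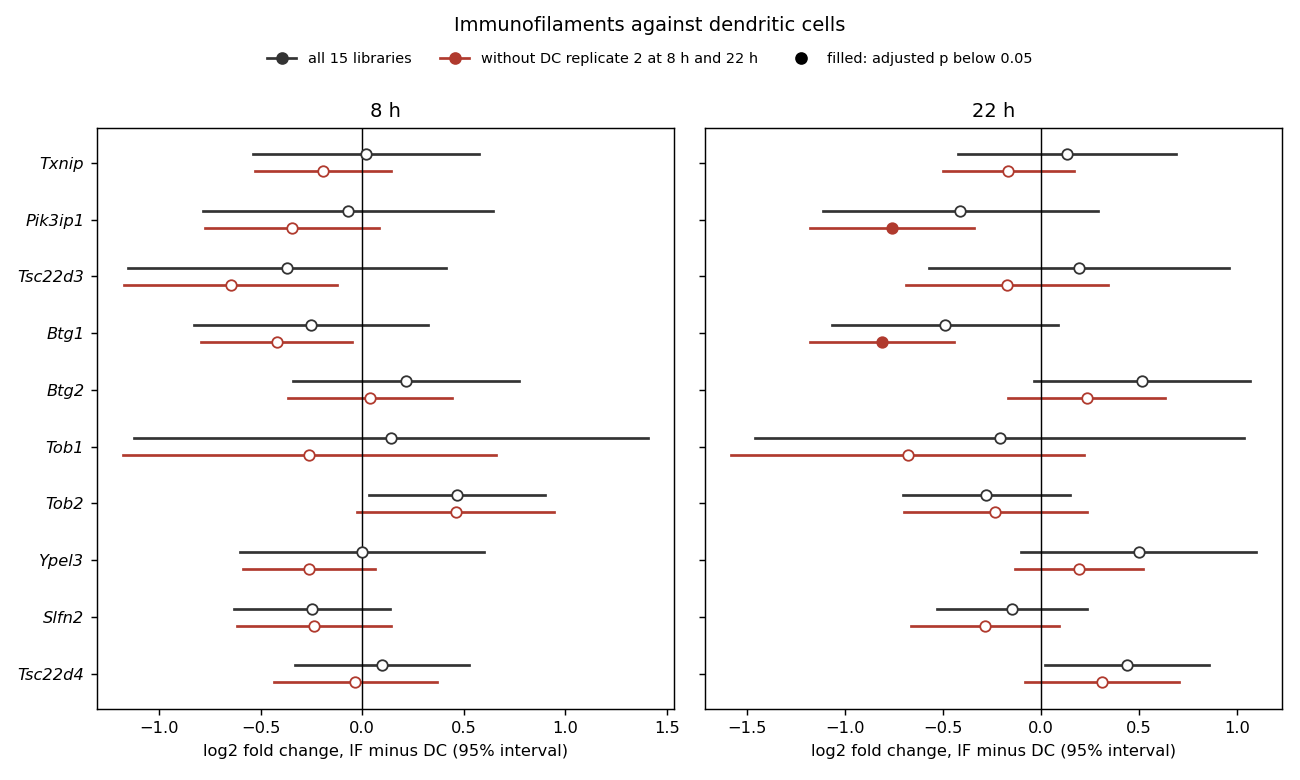
Log2 fold change of IF minus DC (x axis, 95% interval) for each gene at 8 h and 22 h. Black is the fit with 15 libraries and red the fit without DC replicate 2 at both times; the filled points, Pik3ip1 and Btg1 at 22 h, are the only ones with an adjusted p below 0.05.

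Between 8 h and 22 h, 0 of the 10 genes passed with IF (1.12% of all tested genes did) and 0 with DC (0.480% did), by edgeR and by DESeq2. With IF, 2 had an unadjusted p under 0.05: Tob2 at -0.49 ± 0.20 and Tsc22d4 at 0.47 ± 0.20. With DC there were 0. Of the 10831 tested genes 1622 and 978 lay under 0.05 with IF and DC, so these counts are near the background. Same-numbered libraries of DC 8 h and DC 22 h were also fitted as pairs, though the numbers are not shown to mark pairs. With the replicate number as a block in a fit of these 6 libraries, chosen after seeing the data, 0 of the 10 genes passed and 2 had an unadjusted p under 0.05. They were Tsc22d3, lower at 22 h in all 3 pairs at -0.64 ± 0.17 (edgeR adjusted p = 0.10), and Slfn2 at -0.35 ± 0.13 (adjusted p = 0.23). Slfn2 was lower at 22 h in replicates 1 and 2 and nearly the same in replicate 3, at 438 and 436 CPM. In this fit 166 of 10182 tested genes passed, and 15.9% had an unadjusted p under 0.05, which the 2 of 10 are near. IF ranges at 8 h and 22 h did not overlap for 4 of the 10 genes, beside 21.5% of all tested genes, and DC ranges did not for 0, beside 13.9%. The interaction, which asks whether the IF minus DC difference itself changed from 8 h to 22 h, passed for 0 genes, as it did for 0% of all tested genes. Unadjusted, edgeR's quasi-likelihood test put 1 of the 10, Tob2 at -0.75 ± 0.29, and 7.92% of all tested genes under 0.05, and DESeq2 called 0 of the 10. Tob2 was higher with IF than DC at 8 h and lower at 22 h on average, a change that did not pass (adjusted p = 0.54).

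Replicate 2 was low in most of the 10 genes in both DC groups. The 10 genes summed to 2240, 1565 and 2514 CPM in DC 8 h and to 2077, 1190.3 and 2693 in DC 22 h. Replicate 2 was the lowest of the 3 for 8 of the 10 genes at 8 h and for 9 at 22 h, against 40.5% and 42.3% of all tested genes. Its median log2 ratio to the mean of the other 2 libraries was -0.70 at 8 h and -1.16 at 22 h, where all tested genes had -0.05 and -0.04. Replicate 3 was the highest for 10 and 9 of the 10 genes, and the share of all tested genes highest there was not computed. Its median log2 ratio to the mean of the other 2 libraries was 0.50 and 0.75, where all tested genes had -0.01 and 0.002. Outside the DC groups, unstimulated replicate 1 and IF 22 h replicate 3 were each the lowest of their 3 libraries for 8 of the 10 genes. The shares of all tested genes lowest there were 31.3% and 29.2%, and the median log2 ratios of the 10 genes were -0.20 and -0.43.

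**Figure D4:**
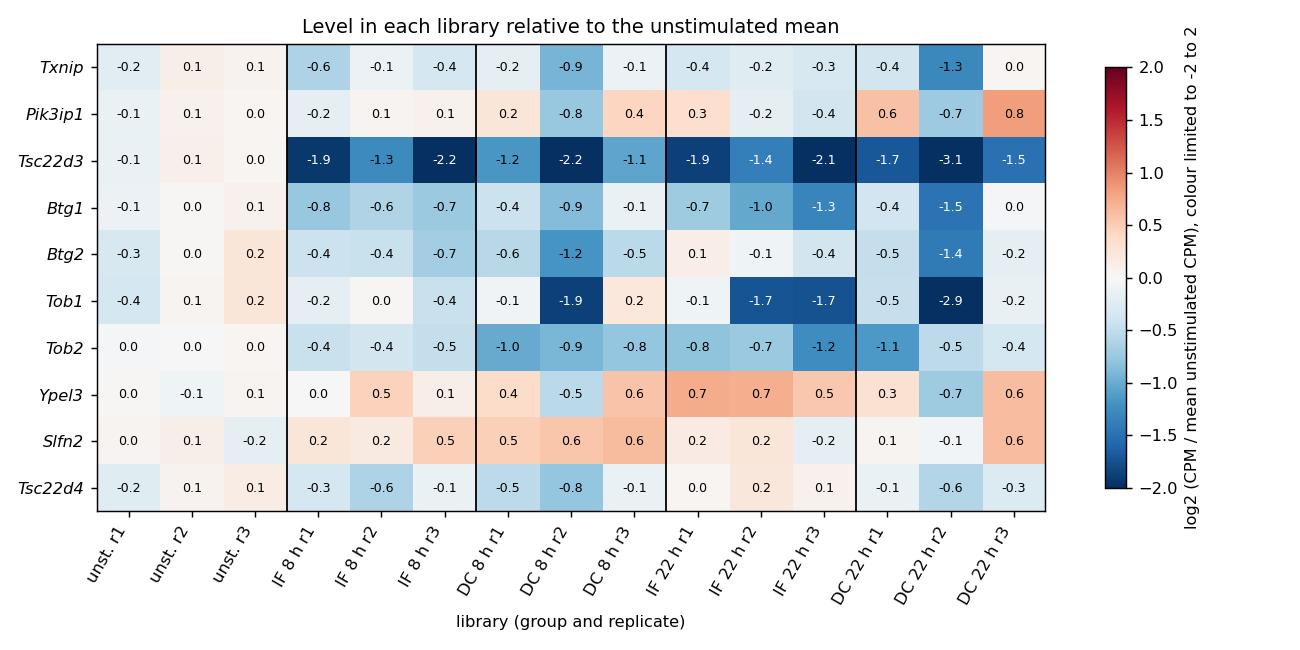
Log2 ratio of each gene's CPM to the unstimulated mean (colour and printed value) in the 15 libraries (columns, r for replicate). Replicate 2 of both DC groups is bluer than its neighbours in most rows, while the row of Tsc22d3 is blue in all 12 stimulated libraries.

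Gzmb, Ifng, Il2ra and the summed cell cycle genes were high in replicate 2 of both DC groups. Gzmb, Ifng, Il2ra and Klf2 were chosen after the values of the 10 had been seen. The share of all tested genes that were highest in replicate 2 was not computed. Gzmb, the granule protease of killer T cells, was at 67.9, 282 and 113 CPM in DC 8 h and at 109.7, 591 and 187 in DC 22 h. Ifng, the cytokine interferon gamma, was at 5.45, 30.4 and 3.67 CPM in DC 8 h and at 4.67, 75.4 and 5.47 in DC 22 h. Il2ra, the high-affinity IL-2 receptor chain, was at 22.0, 56.8 and 17.9 CPM in DC 8 h and at 10.0, 66.0 and 3.93 in DC 22 h. In each case replicate 2 was the highest of its group. The cell cycle genes, 24 in all, summed to 1167, 1826 and 1177 CPM in DC 8 h and to 2478, 4696 and 1556 in DC 22 h. Klf2, a transcription factor of quiescent T cells, was at 769.8, 509.6 and 962 CPM in DC 8 h and at 757, 290.4 and 807 in DC 22 h. The summed dendritic cell markers of replicate 2 were the lowest of the 3 in both groups, at 769 and 392 CPM. What sets these libraries apart was not tested.

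**Figure D5:**
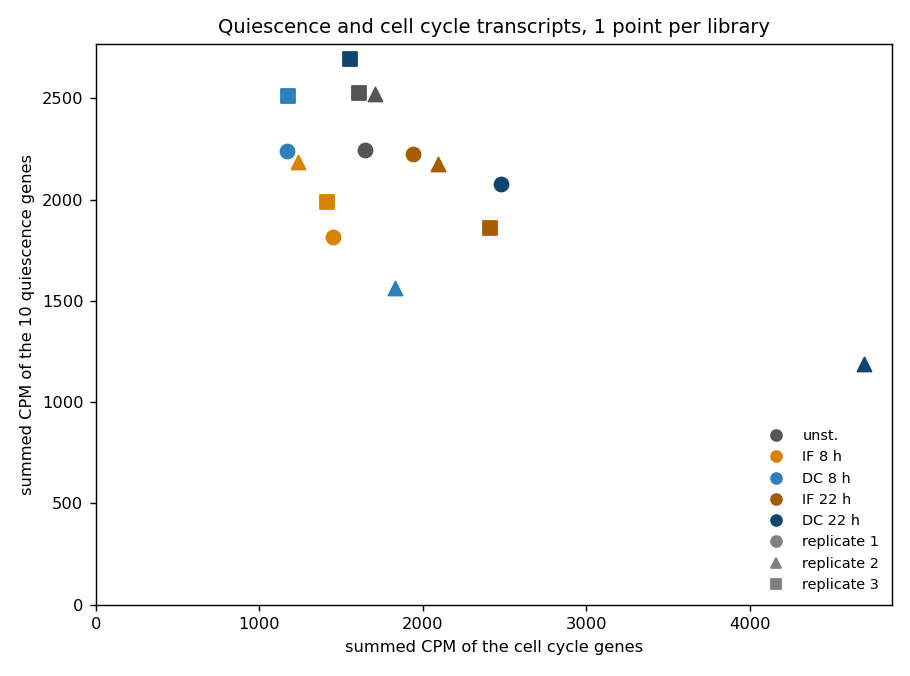
Summed CPM of the 10 genes (y axis) against summed CPM of the cell cycle genes (x axis), 1 point per library, coloured by group and shaped by replicate. DC 22 h replicate 2 lies alone at 1190.3 CPM of the 10 genes and 4696 of the cell cycle genes, and the 3 unstimulated libraries lie between 2243 and 2528 CPM of the 10 genes.

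Over the 15 libraries the 10 genes did not all vary together. Pearson's r between a gene's log2 CPM and the mean of the other 9 was 0.93 for Txnip, 0.83 for Tob1, 0.80 for Btg1 and 0.79 for Btg2. It was 0.44 for Tsc22d4, 0.29 for Tob2 and 0.02 for Slfn2. These are descriptions over libraries that share groups and depth. The genes outside the 10 whose log2 CPM was most like their mean were S1pr1 (r = 0.95), Lef1 (0.93), Sytl1 (0.93), Cox7a2l (0.92) and Scml4 (0.92). That mean, in SDs of each gene over the libraries, was lowest in replicate 2 of DC 8 h and of DC 22 h (-1.10 and -1.69). In the same libraries S1pr1 (263 and 168 CPM) and Lef1 (489 and 356 CPM) were at their lowest. Neither gene passed in any comparison, and r without these libraries was not computed. S1pr1 encodes the receptor that lets naive T cells leave lymph nodes, and Lef1 a transcription factor of naive T cells. Single genes had their own nearest partner, such as Epsti1 for Tsc22d3 (r = 0.94), Sytl1 for Txnip (0.94), Ifngr2 for Btg1 (0.93) and Lmo4 for Tob2 (0.88).

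Lists of other quiescence genes held calls in both directions. With all libraries 7.76%, 6.82%, 6.08% and 7.76% of all tested genes passed in IF 8 h, DC 8 h, IF 22 h and DC 22 h. Of 13 tested genes of the FOXO and KLF2 programme of naive T cells, 1 fell and 1 rose in each of IF 8 h, DC 8 h and DC 22 h, and 3 fell and 1 rose in IF 22 h. Foxo1, a forkhead factor of naive cells, fell from 322 CPM on average to 178, 158, 161 and 176 in IF 8 h, DC 8 h, IF 22 h and DC 22 h (edgeR adjusted p = 0.012, 0.0033, 0.0043 and 0.0088). Bach2, a repressor that restrains effector differentiation, rose from 58.3 to 187, 146, 113 and 127 CPM (adjusted p = 0.00048, 0.0032, 0.028 and 0.0089). Of 24 other tested brakes on proliferation, 3 rose and 2 fell in IF 8 h, 2 and 2 in DC 8 h, 4 and 1 in IF 22 h, and 2 and 3 in DC 22 h. When replicate 2 of both DC groups was left out, 7 of these 24 rose and 4 fell in IF 8 h, 3 and 3 in DC 8 h, 5 and 2 in IF 22 h, and 3 and 4 in DC 22 h, and of the FOXO and KLF2 genes 1 rose and 3 fell in IF 8 h. The share of all tested genes called in IF 8 h went from 7.76% to 12.7% in the same step, and in IF 22 h from 6.08% to 10.2%. Cblb, a ubiquitin ligase that raises the threshold of T cell activation, rose in all 4, from 37.4 to 122, 84.3, 121 and 66.6 CPM. Cdkn1a, the cell cycle inhibitor p21, rose from 3.11 to 88.6 CPM in DC 8 h (adjusted p = 0.00013). It also rose in IF 8 h and DC 22 h (edgeR adjusted p = 0.043 and 0.028) and did not pass in IF 22 h (0.49). Of 23 tested cell cycle genes, 8 rose in DC 22 h and 0 fell, among them Rrm2, a subunit of ribonucleotide reductase, from 85.0 to 425 CPM (adjusted p = 0.0057). Without replicate 2 of both DC groups, 4 of the 23 rose in DC 22 h and the log2 fold change of Rrm2 was 1.54 ± 0.38 (adjusted p = 0.021), against 2.32 ± 0.47 with all libraries. The summed cell cycle genes of DC 22 h replicate 3, at 1556 CPM, lay below the 1610 to 1706 of the unstimulated libraries. In IF 22 h 3 rose and 1 fell, and 8 rose and 1 fell without the DC replicate 2 libraries. Without those libraries 4 fell in IF 8 h, against 1 with all libraries, and 1 fell in DC 8 h, against 0, beside the same rise in the background of the IF comparisons.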

How the data were processed

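RNA of sorted CD8+ OT-I T cells was measured with a modified CEL-seq method that counts 3′ ends from barcoded poly(T) primers after linear amplification, per the labels' protocols. The deposited files hold counts per gene, whole numbers without normalization, with symbol and chromosome, as read from the values and row names. BWA and the build mm10 are named in the submitters' processing notes, while the counting program, the annotation, the use of strand and of molecular identifiers are not given in the sources used here. Amplified reads need not be independent molecules.

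From these counts, R 4.3.3 and edgeR 4.0.16 (limma 3.58.1) were used. Genes were kept by filterByExpr (minimum count 10, minimum total 15), scaled by TMM, and fitted in 1 quasi-likelihood model with 5 group means over 15 libraries. All tests were two-sided and adjusted by the Benjamini-Hochberg method over 10831 genes in each comparison and a threshold of 0.05. Log2 fold changes used a prior count of 0.125 and have standard errors and 95% intervals from the same fit. DESeq2 1.42.0, library size scaling, no low-count filter, fits of only the groups compared, a replicate block, leaving out libraries and others were alternatives. No pair of libraries of a group agreed within sampling noise (smallest chi-square per degree of freedom 7.96). Over all groups, 4 of 30 same-numbered pairs had deviations from the group means correlated over r = 0.1. So had 5 of 60 differently numbered pairs, and the numbers were not used to pair samples in general. Between DC 8 h and DC 22 h all 3 same-numbered pairs were over 0.1 (r = 0.12, 0.40 and 0.24). So were DC 8 h replicate 1 with DC 22 h replicate 3 (0.11) and DC 8 h replicate 3 with DC 22 h replicate 1 (0.12). Deviations from a mean of 3 libraries cancel out, so replicate 2 standing apart at both times can raise all these values. They do not show pairing, and the fit with the number as a block for these groups is an alternative only. Gene positions come from GENCODE vM21 on GRCm38, promoters from RefSeq on GRCm38.p6. The code was tested on simulated data.

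The 10 genes and the gene lists were chosen with earlier results of these data known. Named by rule were the 10 genes, at most the 3 genes of smallest p in a list and comparison, marker genes, the 5 genes of at least 10 CPM most like the mean of the 10, and the nearest gene to each. Gzmb, Ifng, Il2ra and Klf2 in the account of replicate 2, and list genes named at other comparisons than their own, were added after values were seen.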

Additional observations from a re-analysis of the deposited data

How the results depend on the processing

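Of 2260 values of the 10 genes over 9 comparisons, with 25 alternatives each and 1 more for DC 22 h against DC 8 h, 97 had the opposite sign to the reported value, and 0 of those passed in either fit. The number of genes past the threshold in IF 8 h, reported as 1, was 2 with no low-count filter, 2 with only the groups compared, 2 without both DC replicate 2 libraries (6.82%, 13.7% and 12.7% of all tested genes passed in these fits, against 7.76%), and 0 to 2 with single libraries left out. In DC 8 h, reported as 2, it was 1 under library size alone (9.96% of all tested genes, against 6.82%), where Slfn2 passed as higher and Tsc22d3 and Tob2 no longer passed, 3 with no low-count filter, with DESeq2 and with only the groups compared (6.59%, 10.9% and 8.34%), and 0 to 4 with single libraries left out. In IF 22 h, reported as 3, it was 0 without IF 22 h replicates 2 and 3, which leaves 1 library in that group (0.833% of all tested genes, against 6.08%), 2 under library size alone (7.74%), 4 with no low-count filter, with only the groups compared and without both DC replicate 2 libraries (6.43%, 9.93% and 10.2%; Ypel3 added, as higher), and 0 to 3 with single libraries left out. In DC 22 h, reported as 1, it was 2 under library size alone (Tsc22d3 lower, Slfn2 higher; 14.6% of all tested genes, against 7.76%), 2 with DESeq2 (Tsc22d3 and Tob2; 11.7%), 2 without both DC replicate 2 libraries (Tsc22d3 lower, Pik3ip1 higher; 6.29%), and 1 to 2 with single libraries left out. Between IF and DC at 22 h, reported as 0, it was 2 without both DC replicate 2 libraries (3.11%, against 2.43%) and 0 to 1 with single libraries left out. The other 4 comparisons stayed at 0 in every alternative. Apart from the smaller samples and gene sets that these alternatives make, the cause was not tested. With the replicate number as a block the counts were 1, 2, 3 and 1 in IF 8 h, DC 8 h, IF 22 h and DC 22 h and 0 in the other 5 comparisons, so the block changed no count, and it was 0 as well in the blocked fit of the 6 DC libraries. Tob1, with the widest intervals, had 18 to 158 counts per library, and the part of depth in its spread was not tested.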
